A study of Mus musculus with 4 samples.

Results

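The 7 genes described here are the stress transcription factors Atf4, Atf3 and Ddit3, the pseudokinase gene Trib3, and the effector genes Chac1, Sesn2 and Ddit4. They were taken by name from the 34745 genes of the deposited table, and all 7 were found there and passed the filter on low counts. RNA was measured in primary wild-type BMMs, which the paper describes as macrophages derived from bone marrow in medium with M-CSF. The cells came from male C57BL/6 mice of 8 weeks. After 12 h without FBS, every culture received RANKL at 100 ng/mL for 24 h, given together with dimethyl itaconate (DI, a membrane permeable ester of itaconate) in the RANKL+DI group and with DMSO in the RANKL+Veh group. Each group had 2 libraries, and no library without RANKL was among the 4. The labels give the dose of DI as 20 mM and the paper as 20 μM. The methods describe cell culture experiments in general as independent repeats, but neither they nor the labels say from which mice or cultures these libraries came, so the p-values measure the spread between these libraries, which may be technical.

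The integrated stress response begins with kinases that phosphorylate the initiation factor eIF2. General protein synthesis then falls, while the Atf4 messenger, which carries short upstream reading frames, is translated more, so that the level of Atf4 RNA is not a measure of ATF4 protein. ATF4 binds DNA as a dimer with C/EBP and related bZIP proteins and can switch on the other 6 genes. Several of these have further inputs: Sesn2 is also a target of p53 and of the antioxidant factor NRF2, Ddit4 responds to hypoxia and glucocorticoids, and Atf3 is an early gene of inflammatory signals in macrophages. In the osteoclast lineage ATF4 has been linked to the response to RANKL.

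Of the 7 genes, Atf3 and Sesn2 rose with DI, by 1.51-fold and 1.27-fold, and the other 5 did not pass the test (edgeR's quasi-likelihood test, adjusted p under 0.05 over 12590 tested genes). Over all tested genes the share called was 14.8%, with 7.14% higher and 7.70% lower with DI. For Atf4 the 95% interval of the change ran from 0.972-fold to 1.16-fold, and for Ddit3 from 0.850-fold to 1.20-fold. Trib3 had an interval of 0.869-fold to 1.28-fold, while Chac1 and Ddit4, with at most 56 counts in a library, were measured with far less precision. On the log2 scale the median change of the 7 genes was 0.09, against 0.00 over all tested genes. The CPM values of the groups did not overlap for 5 of the 7 genes, and for 58.6% of all tested genes.

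All 7 genes were matched to a promoter from RefSeq (GRCm38.p6), given as 250 bases before to 50 bases after the annotated start. The promoters were searched on both strands for the composite C/EBP-ATF element TGATGNAAN, the cyclic AMP response element TGACGTCA, the core of the antioxidant response element TGACNNNGC, and the ER stress element, in which CCAAT and CCACG stand 9 bases apart. The composite element was found at Atf3, Trib3 and Chac1, 3 of the 7 genes, against 3.95% of all 32851 promoters in the table. The antioxidant core was found at Sesn2 and is held by 12.4% of all promoters. No match to any of these letters was found in the windows of Atf4, Ddit3 and Ddit4. The cyclic AMP element and the ER stress element, held by 1.79% and 0.119% of all promoters, matched none of the 7. The stretches around the 4 matches are shown because 2 belong to the genes that rose, Atf3 and Sesn2, with different elements, and 2 to genes that hold the element of Atf3 and were not called. Each is written 5′ to 3′ on the strand of its gene, with the match in capitals.
Atf3 (chr1:191183421-191183459, minus strand): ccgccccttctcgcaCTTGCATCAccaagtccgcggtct
Trib3 (chr2:152344031-152344062, minus strand): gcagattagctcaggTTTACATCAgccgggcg
Chac1 (chr2:119351033-119351071, plus strand): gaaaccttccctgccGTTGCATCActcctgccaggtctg
Sesn2 (chr4:132510469-132510507, minus strand): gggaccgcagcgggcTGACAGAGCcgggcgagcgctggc
The RefSeq start of Atf3 used here lies inside the GENCODE gene, whose 5′ end is at base 191218039. Counted from the RefSeq start, the match lies at bases -111 to -103 in Atf3, at -194 to -186 in Chac1, at -36 to -28 in Sesn2, and after the start in Trib3, at bases 14 to 22. The GENCODE 5′ ends differ, at base 132510501 for Sesn2 and 152344032 for Trib3. By these ends the Sesn2 match lies inside the gene and the Trib3 match lies before it. At Atf3, Trib3 and Chac1 the letters are those of the element's opposite strand. A match describes the letters of the window and shows no binding.

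The libraries held between 16085692 and 19403480 counts. Markers of the cultured lineage were present and moved with DI. Of 10 tested macrophage markers, 4 were called higher and 3 lower, where 7.14% of all tested genes were higher and 7.70% lower. Their summed level was 27517 and 28408 CPM with DI against 22695 and 21883 CPM with vehicle. Csf1r and Adgre1 had at least 17037 counts in each library. Cd14 had 1018 and 1193 counts with DI against 1640 and 1459 with vehicle, while Mertk had 934 and 1054 against 790 and 662. Of 13 osteoclast markers 12 were detected, with Calcr at 0, and of 11 tested 3 were called higher and 5 lower. Both lists were called more often than all tested genes, at 14.8%. Mmp9, a protease gene of osteoclasts, had 524 and 497 counts against 1693 and 1436, and Ocstamp, a gene of cell fusion, 19 and 15 against 101 and 92. Other markers of this list went up, with 689 and 679 counts against 482 and 434 for Itgb3. Atp6v0d2 had 8735 and 9551 counts against 7954 and 6958. Markers of B cells summed to 22.0 and 23.7 CPM with DI against 11.0 and 12.0 CPM with vehicle, with 5 of 8 detected and Pax5 at 0 counts in all libraries. Those of neutrophils summed to 247 and 244 CPM against 125 and 110.2 CPM, with 8 of 10 detected and Ly6g at 0. Most of these sums came from Ighm and Mmp8, which had 364 and 435 counts, and 4049 and 4383 counts, with DI against 196 and 186, and 2156 and 1662, with vehicle. Those of T and NK cells, mast cells and erythroid cells summed to at most 3 CPM each, and those of stromal cells to 66.2 to 73.2 CPM. The part of such cells in the results below was not tested. In a bulk measurement, fewer cells of a type and less RNA per cell cannot be told apart.

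Levels between genes are compared as FPKM, which is counts per gene length and library total. With vehicle, Atf4 stood first at 125 ± 6.18 FPKM and Atf3 followed at 97.9 ± 1.90 FPKM (SD, n = 2 each), above 97.8% and 97.0% of all tested genes. Sesn2 came next at 8.72 FPKM, then Ddit3 at 8.05, Trib3 at 3.21, Chac1 at 1.32 and Ddit4 at 1.04 FPKM. The libraries of neighbouring genes did not overlap in this order except for Chac1, at 1.10 to 1.53 FPKM, and Ddit4, at 0.759 to 1.33 FPKM. Sesn2 and Ddit3 were close, since the lower Sesn2 library had 8.53 FPKM and the higher Ddit3 library 8.51. With DI, Atf3 stood above Atf4, at 138 ± 1.33 against 124 ± 3.73 FPKM (SD, n = 2 each), and Ddit4 above Chac1 with overlapping libraries. The ratio of Atf3 to Atf4 FPKM was 1.10 and 1.13 in the DI libraries and 0.766 and 0.799 in the vehicle libraries. Atf3 and Atf4 together made up most of the summed CPM of the 7 genes, 55.5% and 55.9% from Atf3 with DI against 47.0% and 47.7% with vehicle.

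**Figure D1:**
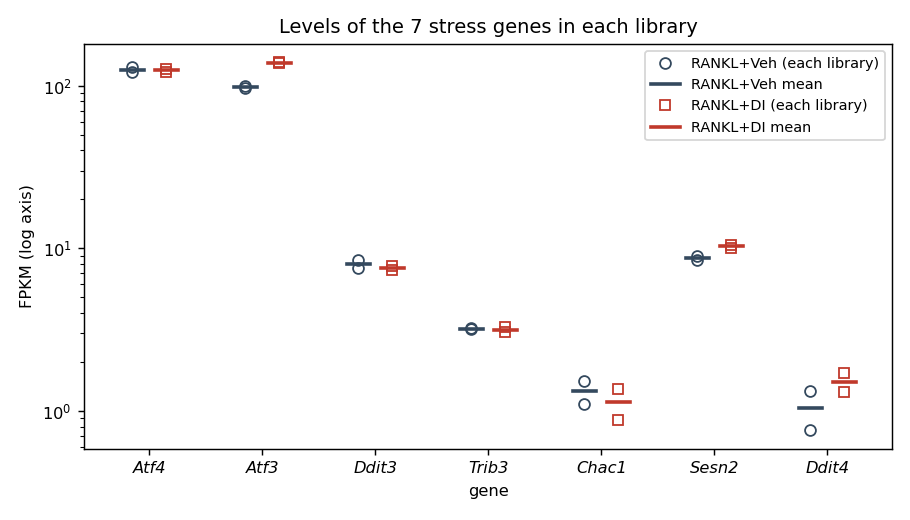
FPKM (log axis) of the 7 genes in each library, with circles for RANKL+Veh, squares for RANKL+DI and bars for the group means. Atf4 and Atf3 lie near 100 FPKM and above, the other genes at 10.5 FPKM or below, and the groups stand apart for Atf3 (96.5 and 99.2 against 137 and 139 FPKM) and Sesn2 (8.53 and 8.91 against 10.1 and 10.5 FPKM).

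Among the transcription factors, Atf4 (ENSMUSG00000042406, chromosome 15 from 80255184 to 80257540) was measured deeply. It was counted 3885 and 4048 times in the DI libraries, and 4014 and 3349 times in the vehicle libraries. After TMM scaling this was 226 and 216 CPM against 215 and 201 CPM. The nearest pair of values from the 2 groups were almost equal. The log2 fold change was 0.09 (standard error 0.052, 95% interval -0.04 to 0.21), with an adjusted p of 0.325 by edgeR's quasi-likelihood test. It was -0.02 when scaled by library size only.

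Atf3 encodes a bZIP factor of the ATF and CREB family that forms homodimers and dimers with JUN proteins and can repress inflammatory genes in macrophages. The gene (ENSMUSG00000026628) lies on the minus strand of chromosome 1 from 191170296 to 191218039. The DI libraries had 6344 and 6805 counts of Atf3, the vehicle libraries 4571 and 3979, or 369.6 and 363 CPM against 245 and 239 CPM. Libraries of a group lay close together and the groups were far apart. Atf3 rose from 242 ± 4.6 to 366 ± 4.72 CPM (SD, n = 2 each). On the log2 scale the rise was 0.60 (standard error 0.038, 95% interval 0.50 to 0.69), with an adjusted p of 8.20e-04 by edgeR's quasi-likelihood test. Its p ranked 73rd among all tested genes, and its rise was larger than that of 74.4% of the genes called higher. Under the 16 alternatives Atf3 stayed higher and passed each time, with adjusted p-values of 2.04e-20 to 0.0466, and with each library left out its log2 fold change was 0.58 to 0.62.

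Ddit3 encodes CHOP, a C/EBP family member that is made late in severe ER stress and promotes cell death. The DI libraries had 304 and 345 counts of Ddit3, the vehicle libraries 352 and 281, or 17.7 and 18.4 CPM against 18.9 and 16.9 CPM, so the DI values lay between the vehicle values. Its log2 fold change was 0.01 (standard error 0.10), with an interval of -0.23 to 0.26 and an adjusted p of 0.951 (edgeR), and it was -0.09 when scaled by library size only. Ddit3 (ENSMUSG00000025408, chromosome 10 from 127290774 to 127296288) shares 4.73% of its exon bases with Mars and Gm4189 on the opposite strand, and whether reads were counted by strand is not stated. For Mars, a tRNA synthetase gene, the DI libraries had 1001 and 989 counts and the vehicle libraries 1237 and 1174. A further GENCODE entry named Ddit3, not used here, shares 6.13% of the exon bases on the same strand.

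Trib3, whose product binds ATF4 and CHOP and restrains them, is an inhibitory target of the same pathway. The gene (ENSMUSG00000032715, chromosome 2 from 152337422 to 152344032) was counted 185 and 187 times in the DI libraries, 185 and 162 times in the vehicle libraries, or 10.8 and 9.97 CPM against 9.93 and 9.73 CPM. The log2 fold change was 0.08 (standard error 0.11, 95% interval -0.20 to 0.36) and the adjusted p 0.705 (edgeR). That interval includes no change and also the log2 fold change of Sesn2, 0.34. The lower DI library stood only slightly above the higher vehicle library, and with library size as the sole scaling the log2 fold change was -0.03.

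Of the effectors, Sesn2 was the only one that passed the test. It encodes sestrin 2, which senses leucine, holds back the growth kinase complex mTORC1 and takes part in antioxidant defence. The gene (ENSMUSG00000028893) lies on the minus strand of chromosome 4 from 132492032 to 132510501. The DI libraries had 626 and 709 counts of Sesn2, the vehicle libraries 533 and 498, or 36.5 and 37.8 CPM against 28.6 and 29.9 CPM. Both DI libraries stood above both vehicle libraries, with a gap larger than the spread within either group. Sesn2 rose from 29.3 ± 0.909 to 37.1 ± 0.949 CPM (SD, n = 2 each). On the log2 scale the rise was 0.34 (standard error 0.068, 95% interval 0.18 to 0.51), with an adjusted p of 0.0238 by edgeR's quasi-likelihood test. This rise was larger than that of 38.9% of the genes called higher. The call was lost when any 1 library was left out: the adjusted p was 0.0539 without DI replicate 1, 0.109 without DI replicate 2, 0.115 without vehicle replicate 1 and 0.0644 without vehicle replicate 2 (edgeR), at log2 fold changes of 0.31 to 0.38. It was also lost when scaled by library size only, where the log2 fold change was 0.24 and the adjusted p 0.0583 (edgeR), although Sesn2 was then 0.34 above the median change of all genes, which had moved to -0.10.

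Ddit4 encodes REDD1, which like the sestrins restrains mTORC1, through the TSC complex. Its counts were few, at 39 and 56 in the DI libraries and 23 and 36 in the vehicle libraries, so that counting error alone was 13.4% to 20.9% of each value. In CPM these were 2.27 and 2.99 against 1.23 and 2.16, and the lower DI library stood just above the higher vehicle library. In FPKM the groups overlapped. The log2 fold change of Ddit4 (ENSMUSG00000020108, chromosome 10 from 59949675 to 59951770) was 0.65, with a standard error of 0.33 and an interval of -0.17 to 1.46, and the adjusted p was 0.256 (edgeR). This interval includes both 0 and the changes of Atf3 and Sesn2. Without vehicle replicate 1 its log2 fold change was 0.29, and without vehicle replicate 2 it was 1.09.

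Chac1 encodes a γ-glutamylcyclotransferase that breaks down glutathione in the cytosol and is among the most responsive targets of ATF4. The DI libraries had 40 and 28 counts of Chac1, the vehicle libraries 45 and 29, or 2.33 and 1.49 CPM against 2.42 and 1.74 CPM, and the groups overlapped. The log2 fold change of Chac1 (ENSMUSG00000027313, chromosome 2 from 119351229 to 119354381) was -0.14 (standard error 0.32, 95% interval -0.93 to 0.66) and the adjusted p 0.825 (edgeR). Its direction rested on single libraries: the log2 fold change was 0.16 without DI replicate 2 and 0.13 without vehicle replicate 1.

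**Figure D2:**
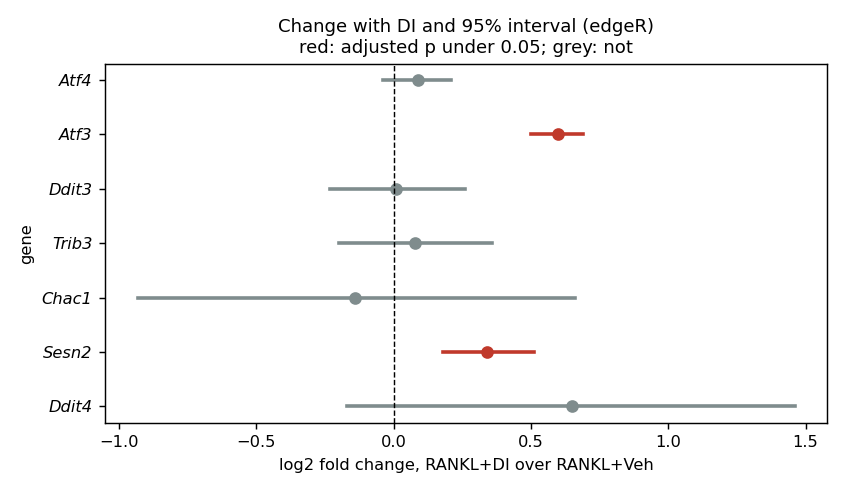
Log2 fold change of each gene in RANKL+DI over RANKL+Veh, with the estimate as a point and its 95% interval as a line, in red where the adjusted p was under 0.05 (edgeR). The intervals of Atf3 (0.50 to 0.69) and Sesn2 (0.18 to 0.51) lie above 0, and that of Atf4 (-0.04 to 0.21) is short and includes 0. Those of Ddit3 (-0.23 to 0.26) and Trib3 (-0.20 to 0.36) include 0 and are wider than that of Sesn2. Those of Chac1 and Ddit4 are the widest.

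**Figure D3:**
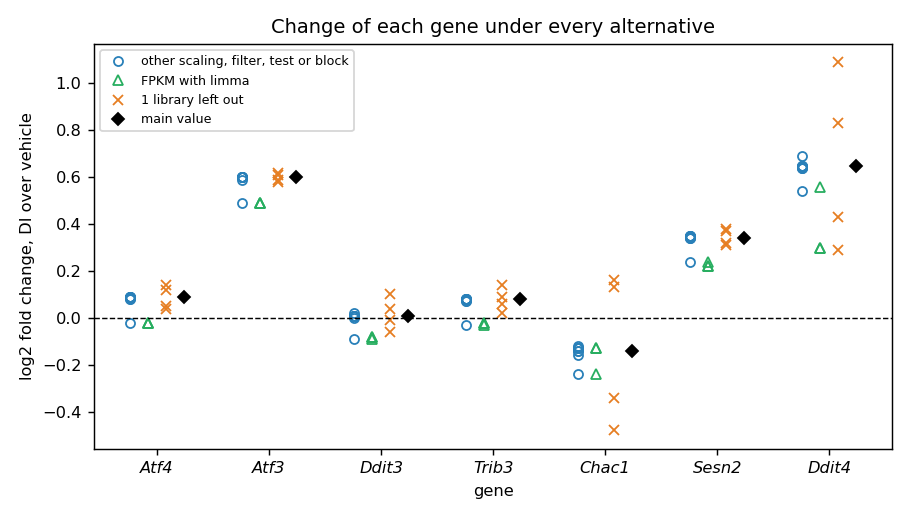
Log2 fold change of each gene, DI over vehicle, under every alternative, with circles for another scaling, filter, test or the block, triangles for FPKM tested with limma, crosses for 1 library left out and diamonds for the main value. Atf3 stays between 0.49 and 0.62 and Sesn2 between 0.22 and 0.38, while leaving out 1 library spreads Chac1 from -0.48 to 0.16 and Ddit4 from 0.29 to 1.09.

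The genes whose pattern over the 4 libraries lay nearest to Atf3, by Euclidean distance of log2 CPM values centred on each gene's mean among 11007 genes, were Angptl2, Tubb2a and Ass1, at distances of 0.0155, 0.0196 and 0.0211. Angptl2 encodes a secreted angiopoietin-like protein, Tubb2a a β-tubulin and Ass1 the argininosuccinate synthase of arginine synthesis. Their log2 fold changes were 0.59, 0.60 and 0.62. Nearest to Sesn2 were 4632428N05Rik, Cd48 and Tle3, at 0.0189, 0.0196 and 0.0203. Cd48 encodes a surface receptor of leukocytes and Tle3 a transcriptional corepressor. Tle3 was not called (adjusted p = 0.0582, edgeR), and the other 5 were.

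The genes upstream of ATF4 were measured through 16 kinases, eIF2 and eIF2B subunits and phosphatase genes, all tested. None rose and 2 fell with DI, a share called of 12.5%, near the 14.8% of all tested genes, and the median log2 fold change was -0.11. Eif2ak2, which encodes the double-stranded RNA kinase PKR and is itself induced by interferon, fell from 101 ± 10.3 to 68.2 ± 2.60 CPM (SD, n = 2 each), at a log2 fold change of -0.57 (adjusted p = 0.00851, edgeR). Eif2s1, the gene of the α subunit of eIF2 that the kinases phosphorylate, had a log2 fold change of -0.23 (adjusted p = 0.0190, edgeR), a call that was lost with any 1 library left out (adjusted p = 0.0554 to 0.0885). The other kinase genes were not called: Eif2ak1 (heme-regulated kinase) had a log2 fold change of 0.00, Eif2ak3 (PERK, the kinase of ER stress) of 0.01 and Eif2ak4 (GCN2, the kinase of amino acid shortage) of 0.14. Ppp1r15a (GADD34), the stress-induced subunit of the phosphatase that reverses the signal, was at -0.03 and its DI libraries differed, with 300 and 502 counts against 411 and 385 with vehicle. With library size as the sole scaling, 7 of the 16 genes were called lower and none higher.

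Of 27 tested bZIP genes that can partner the ATF and CHOP proteins, 5 rose and 4 fell, and 18 were not called, a share called of 33.3% against 14.8% of all tested genes. Cebpb, a partner of ATF4 and CHOP, rose from 86.8 ± 0.847 to 151 ± 3.39 CPM (SD, n = 2 each), or 0.80 on the log2 scale (adjusted p = 5.80e-04, edgeR). Atf5, a relative of ATF4 under similar translational control, rose by 0.72 on the log2 scale (adjusted p = 0.00463, edgeR). Cebpg, another partner of ATF4, was at 0.09 and was not called. Jdp2, a repressor of the ATF and AP-1 family with a part in osteoclast formation, fell from 106 ± 9.06 to 26.6 ± 1.76 CPM (SD, n = 2 each; adjusted p = 3.20e-04, edgeR). Fos, an AP-1 subunit required for osteoclasts, fell by 0.60 (adjusted p = 0.00115, edgeR). With library size as the sole scaling, the split of these bZIP genes turned to 3 higher and 5 lower.

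The targets of ATF4 outside the 7 genes, 57 by name and 51 tested, went both ways, with 9 higher, 10 lower and 32 not called. The share called was 37.3%, against 14.8% of all tested genes, and the median log2 fold change was -0.03. Slc7a11, the cystine transporter gene, rose from 69.7 ± 1.71 to 166 ± 1.24 CPM (SD, n = 2 each), or 1.25 on the log2 scale (adjusted p = 2.58e-04, edgeR). Sqstm1, the gene of the autophagy receptor p62, rose by 0.68 on the log2 scale. Both genes are also in the list of NRF2 targets, where all 26 tested genes rose. That list was already known to rise in these libraries. Cebpb and Atf5, also called higher here, count among the bZIP genes that rose as well, and Cdkn1a among the p53 targets. Psat1, an enzyme gene of serine synthesis, fell by 0.74 on the log2 scale (adjusted p = 0.00554, edgeR), and Slc1a5, the glutamine transporter gene, fell by 0.55 (adjusted p = 0.00295, edgeR). Asns, Phgdh and Mthfd2, widely used readouts of ATF4 activity, were not called, with log2 fold changes of -0.17, -0.18 and -0.02. With library size as the sole scaling, 8 targets were higher and 17 lower. In the promoters of this list, 25.9% of 54 sequences held the composite element TGATGNAAN, against 3.95% of all promoters. Of the 14 genes that held it, 1 rose (Slc7a11), 1 fell (Iars), 11, Asns among them, were not called and 1 was not tested. The antioxidant core TGACNNNGC was in 29.6% of the 54 sequences, which belong to 42 of the 57 genes, against 12.4% of all promoters. Among the promoters of NRF2 targets, 30% of 30 sequences held it. Of the 15 ATF4 targets with this core, 3 rose, 4 fell, 7 were not called and 1 was not tested.

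**Figure D4:**
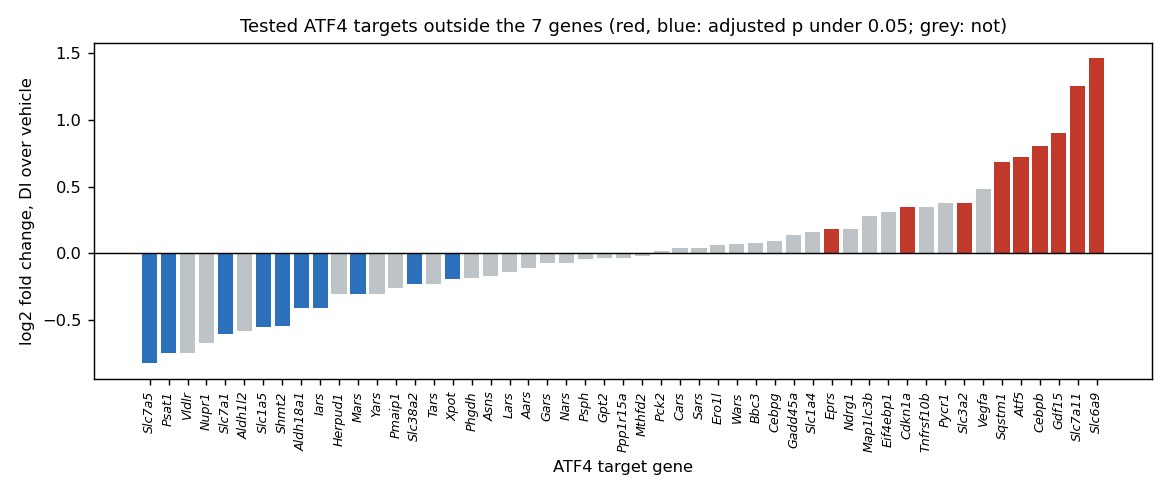
Log2 fold change of the 51 tested ATF4 targets outside the 7 genes, in order of size, with red for genes higher and blue for genes lower at an adjusted p under 0.05 (edgeR) and grey for genes not called. The 9 genes called higher and the 10 called lower lie on both sides of 0, and Asns, Phgdh and Mthfd2 lie near the middle in grey.

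The other arms of the unfolded protein response, through XBP1 and ATF6, had 26 tested genes, of which 4 rose, none fell and 22 were not called, a share called of 15.4%, near that of all tested genes. They were Sel1l, a gene of ER-associated degradation, at a log2 fold change of 0.52 (adjusted p = 0.00322, edgeR), the chaperone genes Calr and Pdia3, both at 0.15, and Crebrf at 0.30. Under 10 of the 16 alternatives Calr and Pdia3 were not called, among them library size only, where both were at 0.04 and the split of the list was 1 higher and 1 lower. Calr, Pdia3 and Crebrf each lost their call with any 1 library left out (adjusted p = 0.0509 to 0.207). Crebrf was also not called with DESeq2 (adjusted p = 0.0949), the exact test (0.0866), upper quartile factors (0.0502) or on FPKM, and with the replicate block 1 gene of the list was called.

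Around Sesn2 and Ddit4, 32 further genes of the sestrin, REDD and mTORC1 system were tested, and 1 rose, 1 fell and 30 were not called. This share called of 6.25% was below the 14.8% of all tested genes. With library size as the sole scaling, 1 was higher and 5 lower. Rragc, which encodes a GTPase that carries amino acid signals to mTORC1, rose by 0.25 on the log2 scale (adjusted p = 0.00994, edgeR), and was not called on FPKM with limma, where its log2 fold change was 0.14 (adjusted p = 0.0955 to 0.198). Rptor, the gene of the mTORC1 scaffold raptor, fell by 0.26 (adjusted p = 0.0134, edgeR), a call lost without vehicle replicate 1 (adjusted p = 0.0633) or vehicle replicate 2 (0.0532). The related sestrin genes were not called, with a log2 fold change of 0.09 for Sesn1 (1191 and 1381 counts against 1272 and 1100 with vehicle) and of 0.66 for Sesn3 (45 and 55 counts against 28 and 34). For Ddit4l, the paralog of Ddit4, the DI libraries had 38 and 41 counts and the vehicle libraries 24 and 21. Its log2 fold change was 0.78 with a standard error of 0.25 (adjusted p = 0.0940, edgeR). Its groups did not overlap in CPM, as was the case for 58.6% of all tested genes. It was called on FPKM with limma (adjusted p = 0.0431 with a pseudocount of 1), a test that does not model counting error.

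Sesn2 and Atf3 are also linked to p53. Of 22 tested p53 targets, 7 rose, none fell and 15 were not called, a share called of 31.8% against 14.8% of all tested genes. Their median log2 fold change was 0.16, and 0.05 with library size as the sole scaling, where 5 rose and none fell. Tested on FPKM with limma, 0 to 5 of these targets were called. Mdm2 and Bbc3, both at a log2 fold change of 0.08, were among the 15 not called. Cdkn1a, the gene of the cell cycle inhibitor p21, rose from 361 ± 1.76 to 461 ± 5.80 CPM (SD, n = 2 each), or 0.35 on the log2 scale (adjusted p = 0.00298, edgeR), and Phlda3, which encodes an inhibitor of AKT, was at 0.53 (adjusted p = 0.00498, edgeR). Around Chac1, 11 genes of glutathione synthesis and breakdown were tested, and 6 rose and none fell, a share called of 54.5% against 14.8% of all tested genes. On FPKM with limma, 2 to 4 of the 11 were called. The 6 that rose were the synthesis genes Gclc, Gclm and Gss, with Ggt5, Cndp2 and Anpep. Chac2, Ggct and Oplah, at log2 fold changes of -0.02, 0.08 and -0.27, were not called. Several of the 11 genes, such as those of the first step of synthesis, are NRF2 targets as well.

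**Figure D5:**
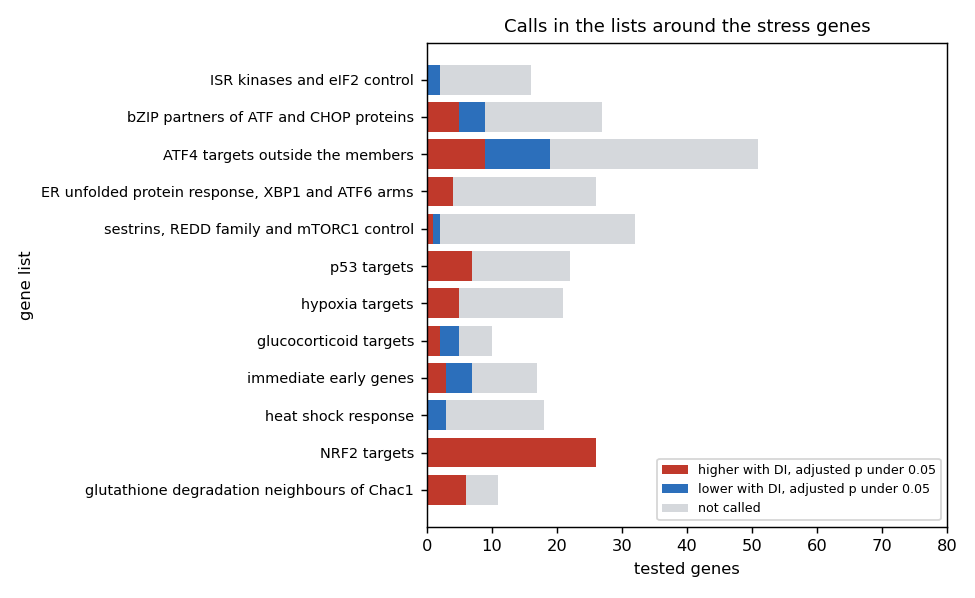
Number of tested genes called higher with DI (red), called lower (blue) and not called (grey) in each list of genes around the 7, at an adjusted p under 0.05 (edgeR). The ATF4 targets split into 9 higher and 10 lower, the eIF2 genes had 2 lower and none higher, and the NRF2 targets had all 26 higher.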

How the data were processed

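The authors deposited a table with a raw read count for each gene in each library, and FPKM values that follow from these counts, 1 length per gene and the library totals. The processing notes name GRCm38, and the aligner and the counting program are not given in the sources used here. A second deposited table repeats the counts and was not used. The 7 genes, the lists of genes around them and the rules were chosen with earlier results of these data known. Some genes count in several lists, as Fos does among the bZIP and the immediate early genes. From each list at most 4 genes with the smallest p, and partners fixed by name, are named, with the 3 genes most alike to each called gene. Iars, Mars, Mdm2, Bbc3, Ggt5, Anpep, Chac2, Ggct, Oplah and the cell type markers were named after their values were seen.

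Counts were tested in R 4.3.3 with edgeR 4.0.16 (TMM factors, default filter on low counts, quasi-likelihood test, condition as the only term, Benjamini-Hochberg adjustment over 12590 genes), tested on simulated data. CPM is on the TMM scale. FPKM, used for levels between genes, is not TMM-scaled. Alternatives used DESeq2 1.42.0, limma 3.58.1, other scalings, filters and pseudocounts, a replicate block, and each library left out. Libraries of a group differed by more than sampling noise (chi-square per degree of freedom 8.08 and 8.27). Overlaps were read from GENCODE M21, where all 34344 matched identifiers lay on the same chromosome. No transcript of another gene matched the 7 at 95% identity over 20% of its length (BLAST+ 2.17.0). Intervals cover counting error and the spread of 2 libraries.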

Additional observations from a re-analysis of the deposited data

How the results depend on the processing

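Of the log2 fold changes of the 7 genes under 16 alternatives, 88 kept their direction and their side of the threshold, 8 lost the call (all of Sesn2) and 16 changed sign, none of the latter a called value. Atf3 and Sesn2 were both called under the other scalings by size factors or upper quartile, other filters, DESeq2, the exact test and limma-voom, and only Atf3 (1 gene) with library size only, on FPKM and with any library left out (1 in each). Scaling by library size only, which put the median of all genes at -0.10, gave log2 fold changes of -0.02 for Atf4, -0.09 for Ddit3, -0.03 for Trib3, -0.10 for Eif2ak3, -0.01 for Cebpg and -0.01 for Sesn1. The FPKM values, scaled in the same way, gave -0.02, -0.08 or -0.09, -0.02 or -0.03, -0.08 or -0.10, -0.01 or -0.02, and -0.01 for these genes. With 1 library left out, where the lone sample of a group is assumed to vary like the other group, Ddit3 ranged from -0.06 to 0.10, Chac1 from -0.48 to 0.16, Trib3 from 0.02 to 0.14, and Ddit4 from 0.29 to 1.09. Ddit3 was at -0.01 without DI replicate 2, Chac1 at 0.13 without vehicle replicate 1, and Ppp1r15a at 0.01 without vehicle replicate 2. Ppp1r15a ranged from -0.37 to 0.25, Cebpg from -0.01 to 0.19, Mthfd2 from -0.04 to 0.01, Eif2ak3 from -0.02 to 0.03 and Eif2ak1 from -0.01 to 0.01. Eif2ak1 and Eif2ak3 otherwise changed sign only at 0.00.

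Over all genes 1868 were called, 899 higher and 969 lower. Library size only gave 548 higher and 1932 lower, log2(FPKM + 1) with limma 444 and 1467, or 386 higher without a filter, and log2(FPKM + 0.01) 171 and 474, in all 645. With 1 library left out 1087 to 1394 genes were called, 558 to 682 higher and 529 to 712 lower. Of the genes in the lists, 85 were called, and 39 with log2(FPKM + 0.01). Over the alternatives 0 to 7 genes of eIF2 control were called, 11 to 25 ATF4 targets, 0 to 4 genes of the unfolded protein response, 1 to 6 of the mTORC1 system and 0 to 8 p53 targets. Where an alternative moved a value by other than its scaling or fewer samples, the cause was not tested.

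The libraries share replicate numbers, but deviations of same-numbered libraries from their group means had a correlation of only r = -0.0344 (across 11919 genes, which are not independent), so the numbers were not taken as pairs. With the replicate block, in which immediate early genes called went from 7 to 3, glucocorticoid targets from 5 to 3 and heat shock genes from 3 to 1, 1389 genes were called, both Atf3 and Sesn2 among them (adjusted p = 0.0393 for Sesn2, edgeR). Low counts limit what can be said of Chac1, Ddit4, Sesn3 and Ddit4l.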

Other observations

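Other stress programs that feed into the same genes were also measured. Of 21 tested hypoxia targets, which share Ddit4 as a responder, 5 rose, none fell and 16 were not called, with a median log2 fold change of 0.17 and a share called of 23.8%, against 14.8% of all tested genes. Slc2a1, the glucose transporter gene, rose from 99.5 ± 4.29 to 152 ± 0.975 CPM (SD, n = 2 each), or 0.62 on the log2 scale (adjusted p = 0.00156, edgeR's quasi-likelihood test). Of 10 tested glucocorticoid targets, 2 rose and 3 fell, a share called of 50%, against 14.8% of all tested genes. Nfkbia, the gene of an NF-κB inhibitor, was at -0.49 on the log2 scale (adjusted p = 0.00233, edgeR). With 1 library left out, 4 of these targets were called without DI replicate 1, 2 without DI replicate 2 or vehicle replicate 1, and 1 without vehicle replicate 2. Of 17 tested immediate early genes, a class to which Atf3 is often counted, 3 rose and 4 fell (41.2% called), with 3 called when either vehicle replicate was left out and 4 when either DI replicate was, and Myc fell by 0.87 on the log2 scale (adjusted p = 0.00778, edgeR). Heat shock genes had 18 tested members, of which 3 fell and none rose, a share called of 16.7%, near that of all tested genes, with 1 called when either vehicle replicate was left out and 2 when either DI replicate was. With library size as the sole scaling, the splits of these lists into higher and lower were 5 and 0 for hypoxia, 1 and 3 for glucocorticoids, 1 and 4 for immediate early genes, and 0 and 5 for heat shock.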
